A study of Rattus norvegicus with 16 samples.

Results

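The cytosolic ribosomal protein genes were followed in whole hippocampus of adult male Sprague-Dawley rats after fluid percussion traumatic brain injury (TBI). They were taken from the array by gene name: any non-control probe named Rpl or Rps with a number, with or without a closing letter, or Rplp0, Rplp1 or Rplp2, and not a ribosomal S6 kinase. This gave 78 of the 26583 gene names on the array, some of which are only accessions or probe names, with 142 of the 30367 non-control probes. Of the 78 genes, 30 encode small subunit and 48 large subunit proteins or their paralogs. Each gene is represented by its brightest probe. All 142 probes were among the 22829 probes tested: a probe was tested where all arrays of 1 group or more had it well above background.

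The study asked how drug treatment after injury alters hippocampal gene expression. 16 one-colour arrays were available, each a separate sample by its label. Naïve rats (n = 3) had neither injury nor treatment, and Sham rats (n = 2) were anaesthetised and prepared for injury without receiving it. TBI rats (n = 3) received a severe fluid percussion injury, a pressure pulse delivered to the exposed dura. The 3 remaining groups had the same injury and then PMI-006 (TBI+PMI, n = 3) or JM6 (TBI+JM6, n = 3) by oral gavage, or E33 by the subcutaneous route (TBI+E33, n = 2). The labels do not say what E33 is. The study's methods list an estradiol group, given by the intraperitoneal route, and that this is the E33 group is an inference. No vehicle group is named in the labels, and hippocampi of the injured rats were taken 24 hours after injury. Poly(A) RNA was amplified with 1 of 2 kits before labelling, and which kit served which sample is not given in the sources used here. Levels are log2 of the signal divided by the array's 75th percentile of probes well above background, so that 0 is the level of that percentile, and levels of different probes are not compared.

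Ribosomal proteins are built into the small and large subunits of the ribosome, in close to equal numbers per particle. Their mRNAs are abundant and share a stretch of pyrimidines at the 5′ end, the terminal oligopyrimidine tract, through which mTOR signalling and the RNA-binding protein LARP1 control their translation. Some have further roles: Rpl5 and Rpl11 with 5S rRNA bind Mdm2, Rps6 is the substrate of S6 kinase, and Rplp0, Rplp1 and Rplp2 form the stalk that recruits elongation factors.

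The probes below carry the differences described later, and their positions are those of the array design in rat build rn4. They are Rps2 (chr10:13976628-13976688, plus strand, an interval 1 base longer than the 60-base probe), Rpl7a (chr3:5810185-5810399, plus strand, across a splice junction), Rps7 (chr6:46512040-46512391, minus strand, across a splice junction), Rps4y2 (chr4:185978154-185978213, plus strand) and 3 probes of Rps23 (chr2:21047736-21047795, chr2:21047796-21047855 and chr2:21047791-21047849, plus strand). The Rps23 probes are shown because the first gave another result than the other two, which hold the same 26 bases, in capitals.
Rps2: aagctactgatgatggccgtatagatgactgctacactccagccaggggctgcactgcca
Rpl7a: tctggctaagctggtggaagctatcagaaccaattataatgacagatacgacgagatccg
Rps7: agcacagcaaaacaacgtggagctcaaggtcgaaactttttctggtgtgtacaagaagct
Rps4y2: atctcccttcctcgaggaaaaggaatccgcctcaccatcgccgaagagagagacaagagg
Rps23 probe 1: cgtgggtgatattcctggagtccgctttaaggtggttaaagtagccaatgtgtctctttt
Rps23 probe 2: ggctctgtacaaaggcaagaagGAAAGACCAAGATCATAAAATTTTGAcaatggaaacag
Rps23 probe 3: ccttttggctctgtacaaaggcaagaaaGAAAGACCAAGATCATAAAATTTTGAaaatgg

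The 5′ ends of the genes were read from RefSeq (rat build GRCr8), which gave a start site window for 62 of the 78 genes. The other 16 genes, Rpl10l, Rpl15 and Rpl8 among them, were missing from that table. Within 20 bases before to 20 after the start, 45 of the 62 genes (72.6%) held a run of at least 8 pyrimidines, against 15.5% of 33469 rat promoters, and the median longest run was 10 bases against 5. The letters CTTTCC stood on the gene's strand within 50 bases of the start in 33.9% of the genes and 4.4% of all promoters, and on the other strand in 3.23% and 4.72%. The windows below run from 30 bases before to 20 after the start, with the longest pyrimidine run found within 20 bases of the start in capitals, so that letters farther upstream are not marked even where they would make or lengthen a run. The starts are as annotated and their accuracy was not tested, so a short run does not show that an mRNA lacks the tract. The first 7 have the long run, and Rpl22l1, Rpl7l1 and Rpl11 show 3 genes with a short one. They are Rps2 (chr10:14251818-14251867, plus), Rps3 (chr1:163195757-163195806, minus), Rpl13a (chr1:104748894-104748943, minus), Rpl23 (chr10:83272165-83272214, minus), Rplp1 (chr8:71290853-71290902, minus), Rpl5 (chr14:1995206-1995255, minus), Rpl22 (chr5:168117931-168117980, plus), Rpl22l1 (chr2:113683166-113683215, plus), Rpl7l1 (chr9:21695688-21695737, plus) and Rpl11 (chr5:153560783-153560832, minus).
Rps2 start: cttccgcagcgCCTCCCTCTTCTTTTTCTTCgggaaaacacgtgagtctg
Rps3 start: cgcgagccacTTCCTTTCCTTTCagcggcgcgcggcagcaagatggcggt
Rpl13a start: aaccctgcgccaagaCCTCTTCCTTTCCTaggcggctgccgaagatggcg
Rpl23 start: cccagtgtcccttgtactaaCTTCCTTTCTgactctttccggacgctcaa
Rplp1 start: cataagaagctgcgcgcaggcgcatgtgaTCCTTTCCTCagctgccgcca
Rpl5 start: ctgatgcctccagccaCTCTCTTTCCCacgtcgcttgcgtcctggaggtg
Rpl22 start: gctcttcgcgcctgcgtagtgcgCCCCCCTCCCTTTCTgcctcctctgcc
Rpl22l1 start: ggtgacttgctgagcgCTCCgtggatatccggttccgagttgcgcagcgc
Rpl7l1 start: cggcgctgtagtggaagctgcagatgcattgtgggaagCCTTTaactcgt
Rpl11 start: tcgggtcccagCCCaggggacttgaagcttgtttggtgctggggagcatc

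The arrays were scanned in 2 sessions. All Naïve, Sham and TBI arrays belonged to the later session and all arrays of the drug groups to the earlier one, so session and drug treatment cannot be told apart. The later arrays had 16282 to 18245 probes well above background and the earlier ones 20259 to 24984. With the scaling used here the median of all tested probes lay between -3.27 and -2.93 on the later arrays and between -2.43 and -1.93 on the earlier ones. The 78 brightest probes were well above background on every array with a usable spot, none was saturated, and 70 to 78 of them were usable on an array. Spots too bright for the high-gain scan are read from a low-gain scan: this held for 50 to 56 ribosomal protein genes on 6 of the 8 later arrays, for 67 on TBI array 2 and 66 on TBI array 3, and for 64 to 71 on the earlier arrays. All 9 hippocampal neuron markers used to check the tissue passed the filter on dim probes. In whole tissue, fewer cells of a type and less RNA per cell cannot be told apart. The p-values measure the spread between these samples.

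The ribosomal protein genes moved together from array to array within a group, by an amount that depended on the scaling. The median over the genes was 4.42, 4.47 and 4.32 on the Naïve arrays, 4.17 and 4.55 on the Sham arrays, and 4.25, 4.91 and 4.51 on the TBI arrays. It was 4.75, 4.75 and 4.41 on the TBI+PMI arrays, 4.61, 4.73 and 4.99 on the TBI+JM6 arrays, and 4.80 and 4.90 on the TBI+E33 arrays. Naïve arrays 1 and 2, Sham array 2 and TBI arrays 2 and 3 lay within the range of the drug arrays, and TBI array 2 was the highest of them. Part of this movement lies in the divisor of each array: TBI+PMI array 3 had a divisor of 2058, where arrays 1 and 2 had 1696 and 1668, while the median signals of the ribosomal protein genes were 43690, 45490 and 45020 in that order. Under quantile normalization the array medians, as differences from the median of all 16 arrays, were -0.01, 0.02 and -0.01 for TBI+PMI, 0.03, 0.05 and -0.002 for TBI+JM6 and -0.06, 0.19 and 0.05 for TBI. There TBI array 2 was still the highest of its group, and TBI+JM6 array 3, the highest of its group with the percentile scaling, was the lowest.

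**Figure D1:**
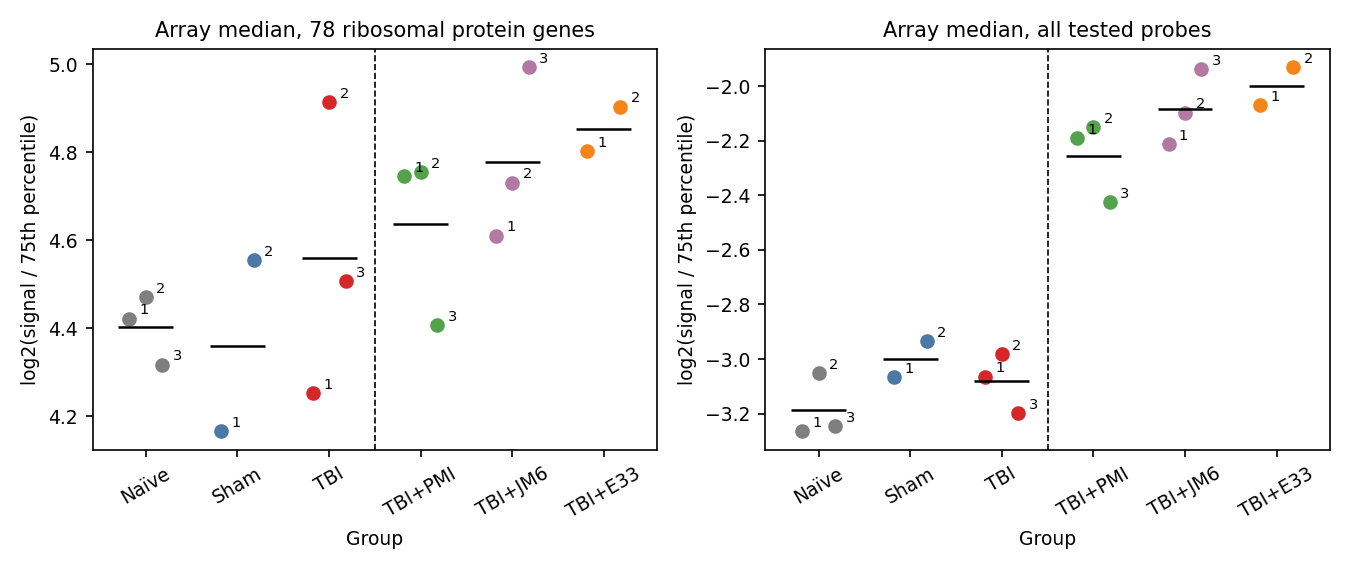
Median level on each array of the 78 ribosomal protein genes (left) and of all tested probes (right), as log2 of signal over the array's 75th percentile; points are arrays with their replicate number, bars are group means, and the dashed line separates the scanning sessions. All probes separate the sessions with no overlap (highest later value -2.93, lowest earlier value -2.43), while the ribosomal protein genes overlap between them.

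With the percentile scaling the movement was seen gene by gene. On TBI array 2, 78 of 78 genes lay above the mean of the TBI group, and of the 75 genes measured on all 3 TBI arrays 97.3% were highest there, against 52.9% of all tested probes. TBI array 1 was the lowest of its group in 67 of the 75. In the TBI+PMI group array 3 was lowest in 76 of 78, in the TBI+JM6 group array 3 was highest in 70 of 77, and of the Sham pair array 1 was the lower in 67 of 73. Pooled over the groups, the SD within a group had a median of 0.23 over the ribosomal protein genes and 0.32 over all tested probes. After each array's median deviation of the ribosomal protein genes was taken off, their SD was 0.11. Under quantile normalization the values were 0.13 for the ribosomal protein genes and 0.30 for all probes.

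**Figure D2:**
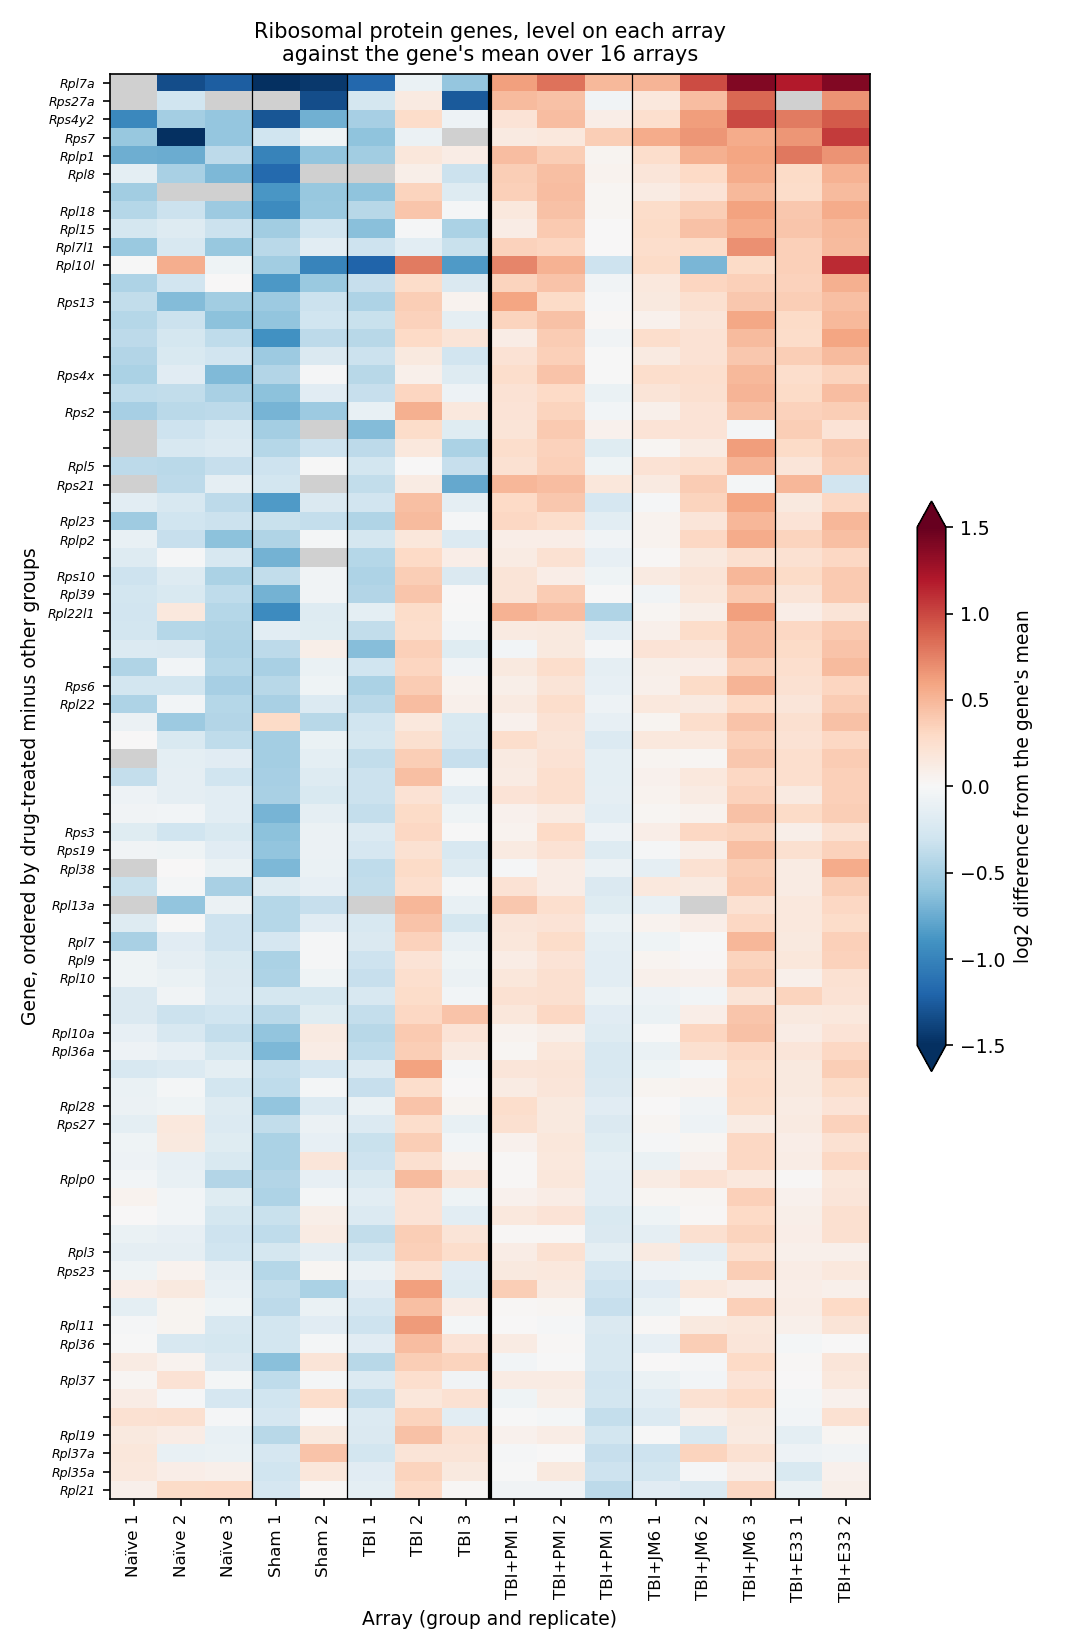
Level of each of the 78 ribosomal protein genes (rows, ordered by the difference between the drug groups and the others) on each of the 16 arrays (columns), as the log2 difference from the gene's own mean; genes named in the text are labelled, grey cells had no usable spot and the thick line separates the scanning sessions. Whole columns differ in shade within a group: TBI array 2 is above its group's mean in 78 of 78 genes, and TBI+PMI array 3 is the lowest of its group in 76 of 78.

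Injury was compared with surgery alone first. Most ribosomal protein genes were higher in TBI than in Sham by a small amount: 72 of 78 lay above 0, where 47.6% of all probes did, with a median log2 difference of 0.29, against -0.03 for all tested probes and 0.03 for the brightest 10% of probes. The small subunit genes had a median of 0.22 and the large subunit genes 0.30. Only Rps2, a small subunit protein near the mRNA entry site, rose past the threshold (limma, Benjamini-Hochberg over all probes), which is 1 of 78 where 9.38% of all probes were called. 10 of 78 genes were under 0.05 without adjustment, against 26% of all probes. The TBI and Sham arrays did not overlap for 15 genes, all higher in TBI, while 41.8% of all probes did not overlap.

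Rps2 stood at 4.71, 4.80 and 4.81 in the Naïve rats, at 4.51 and 4.66 in the Sham rats and at 5.10, 5.74 and 5.37 in the TBI rats. All TBI arrays were above all Naïve and Sham arrays. The TBI minus Sham difference was 0.82 ± 0.20 (SE), or 1.76-fold, with a limma adjusted p of 0.0271 after Benjamini-Hochberg, and TBI minus Naïve was 0.63 with an adjusted p of 0.0655. The other 3 probes of Rps2 gave 0.27, 0.57 and 0.60 for TBI minus Sham, none of them called. The call was lost when Sham array 1 or 2 or TBI array 2 or 3 was left out, with the slide as a fixed block, with normexp background correction, with the compared groups alone and with the mean of its 4 probes. Without TBI array 1, 9 ribosomal protein genes were called, with TBI array 2 left out none was, and the median over the 78 genes ranged from 0.08 to 0.45 as single arrays were left out. The shares of all probes called in those fits are not given here.

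Among the genes next to Rps2, none of which passed the adjusted threshold, Rpl8, a large subunit protein at the peptidyl transferase centre, differed by 1.05 between TBI and Sham. That probe was usable on 2 TBI arrays and 1 Sham array. The other probe of Rpl8, usable on all 16 arrays, gave 0.35 and was not called. By limma with Benjamini-Hochberg, Rps4y2, a paralog of Rps4x, differed by 0.90 (adjusted p = 0.0578) and Rpl18 by 0.75 (adjusted p = 0.0634). The stalk protein Rplp1 differed by 0.72 (adjusted p = 0.0772) in the same limma fit. Rplp1 read 3.0 and 3.41 in the Sham rats and 3.48, 4.17 and 4.12 in the TBI rats. The lowest TBI value was that of array 1 and lay just above the Sham range. The other stalk proteins had differences of 0.42 (Rplp0) and 0.14 (Rplp2).

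The genes with roles outside the ribosome had small TBI minus Sham differences, none of them called. Rps6, the S6 kinase substrate, had 0.22, Rps3, a small subunit protein also known in DNA repair, 0.38, and Rps19, the gene most often altered in Diamond-Blackfan anaemia, 0.25. Rpl5 had -0.04 and its 5S partner Rpl11 had 0.32. Rpl13a, often used as a reference gene, had 0.58 over 2 TBI and 2 Sham arrays. Between members of a paralog pair, Rps4x had 0.05 where Rps4y2 had 0.90, Rpl22 had 0.40 and Rpl22l1 0.60, Rpl7 had 0.14 and Rpl7l1 0.02, and Rpl10 had 0.21 and Rpl10l 0.33. At their other probes Rps4y2 had 0.40, Rpl22 0.41, Rpl22l1 -0.11, Rpl7 0.62, Rpl10l 0.18 and Rpl10 0.39 and 0.51. The differences within pairs were not tested. Genes with a pyrimidine run of at least 8 bases had a median of 0.29 (n = 45), and those with a shorter run 0.32 (n = 17).

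**Figure D3:**
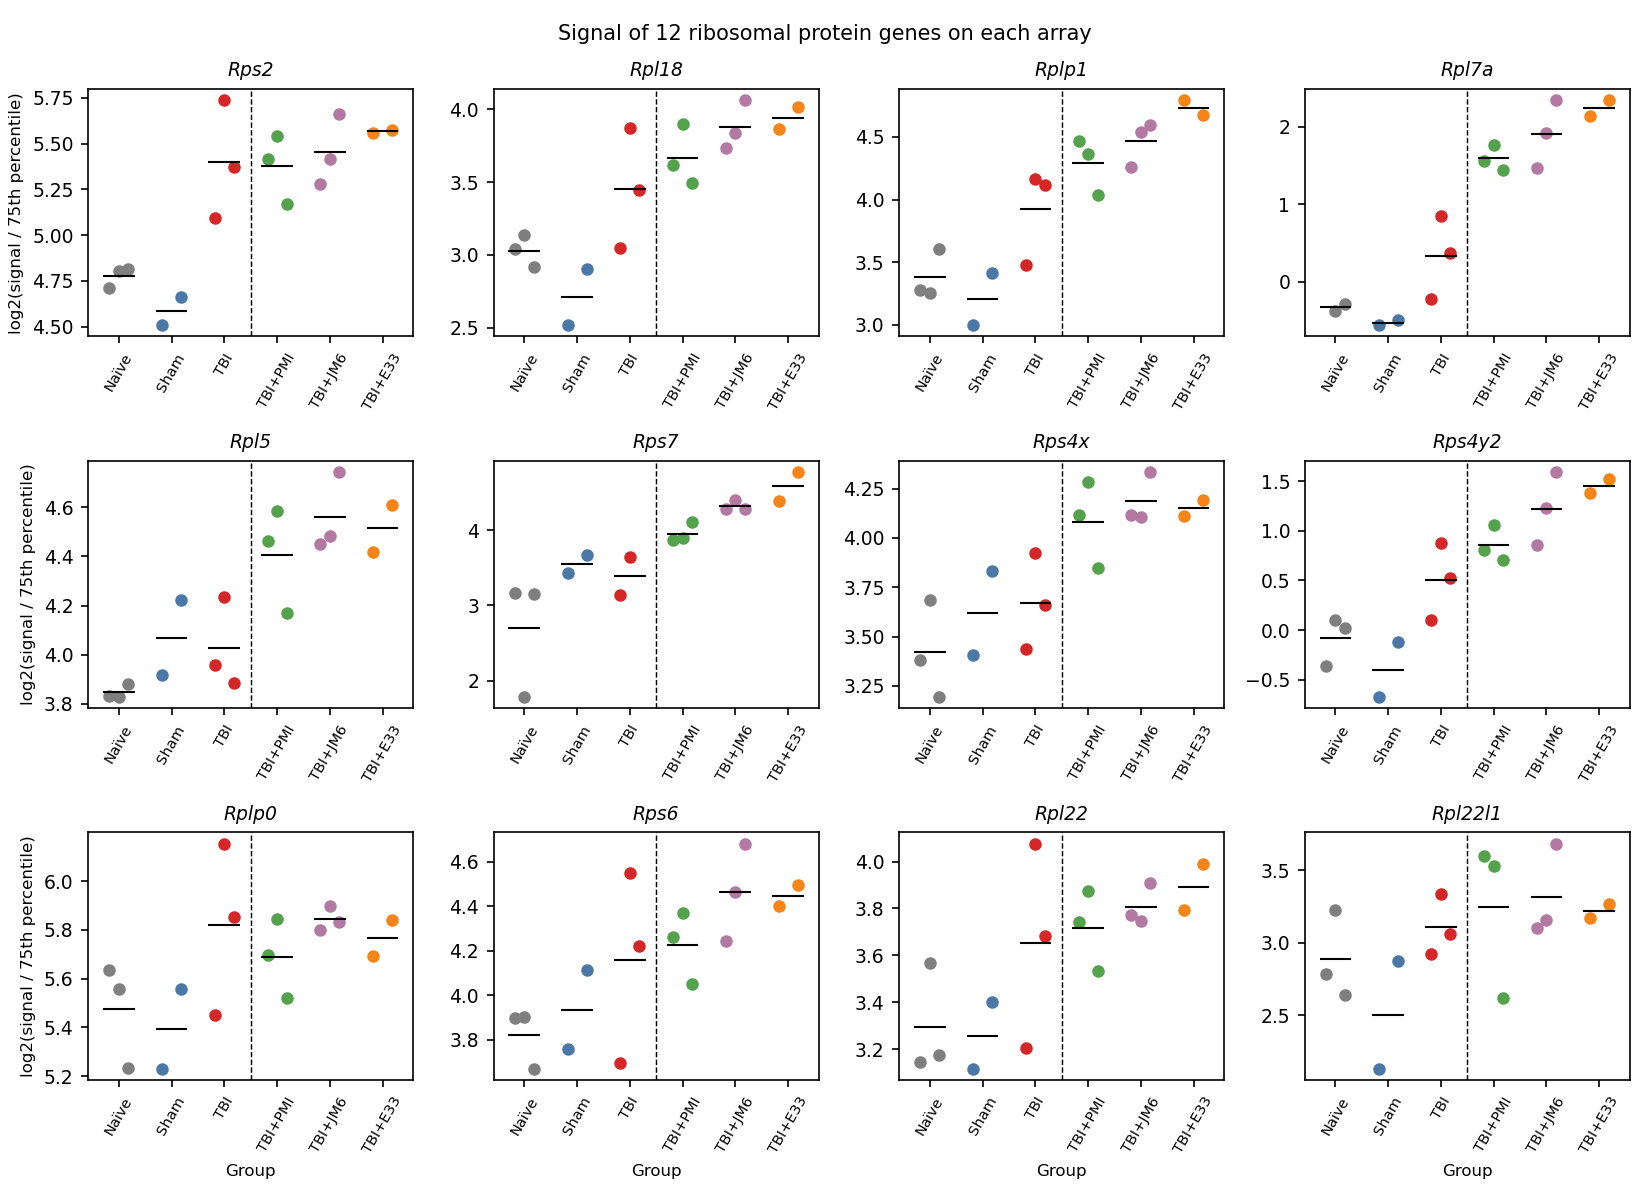
Level of 12 ribosomal protein genes on each array (points) by group, as log2 of signal over the array's 75th percentile, with group means as bars; the dashed line separates the scanning sessions and each panel has its own axis. Rps2 is above the Naïve and Sham arrays on all 3 TBI arrays, while Rpl7a lies between 1.44 and 2.34 on every drug array and at most at 0.85 on the others.

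Compared with Naïve rats, 68 of 78 genes were higher in TBI, where 54.2% of all probes were, with a median of 0.18 against 0.04 for all probes. None was called, where 4.71% of all probes were (limma, Benjamini-Hochberg), and 5 were under 0.05 without adjustment, against 20.9% of all probes, namely Rps2, Rplp1, Rps13, Rps4y2 and Rpl7a. The arrays did not overlap for 5 genes, against 23.3% of all probes. Without TBI array 1, 3 genes were called, and the share of all probes in that fit is not given here. Sham minus Naïve ran the other way, with 22 of 78 above 0, where 54.5% of all probes were, and a median of -0.12 against 0.06 for all probes. Again none was called, where 8.08% of all probes were, and 2 were under 0.05 without adjustment, against 22.7% of all probes: Rpl8 (-0.73) and Rps7 (0.85). Rpl8 had 1 usable Sham array, and its other probe had -0.08. The Sham and Naïve arrays did not overlap for 20 genes, against 39.5% of all probes. Both injury comparisons share the TBI arrays.

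The slides allowed some of these comparisons to be made within 1 slide. Slide 1 held 2 Naïve and both Sham arrays and gave a Sham minus Naïve median of -0.15, with 16 of 78 genes above 0. Slide 2 held 1 Naïve and the 3 TBI arrays and gave a TBI minus Naïve median of 0.29, with 70 of 76 genes above 0, against 0.11 for all probes. No slide held both TBI and Sham arrays.

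Other genes of translation were set beside the ribosomal protein genes for TBI minus Sham by counts and medians, with no test between the lists. Of all probes 2.92% were called higher and 6.46% lower, and at such shares a list of this size holds few calls. Of 69 mitochondrial ribosomal protein genes tested, none rose and Mrpl43 (-2.10) and Mrps10 (-2.08) fell, with a median of 0.02. Both rose in Sham over Naïve by 2.16 and 2.56, so their Sham level stood above those of the groups on either side. Of 10 elongation factor genes none rose, and Eef2, the translocase, and Eif5a2 fell by 0.76 and 1.12, with a median of -0.08. Of 42 ribosome biogenesis genes none rose and Rrn3, an RNA polymerase I initiation factor, Rrs1 and Rrp1 fell, the first by 0.93 and the second by 0.87, with a median of 0.18, 30 of 42 above 0 and a median of 0.21 under quantile normalization, where the ribosomal protein genes had 0.18. None of 31 initiation factors and none of 7 ribosome-associated genes such as Rpsa and Fau was called, with medians of 0.10 and 0.16 and with 18 of 31 and 7 of 7 above 0. Of 17 genes of mTOR signalling and of its control of ribosomal protein mRNAs none rose, and Max (-0.93), Pdcd4 (-0.87) and Akt1s1 fell, with a median of -0.10. Against Naïve rats no gene of these 6 lists was called lower in TBI, 1 mTOR gene was called higher and the elongation factor median was 0.18. In Sham over Naïve 3 biogenesis, 3 initiation factor, 2 mTOR and 2 mitochondrial ribosomal genes were called higher. Of all probes 4.71% and 8.08% were called in these comparisons.

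Markers of cell types moved in the same comparison. Of 6 microglia and macrophage markers Cd68 (2.68) and Itgam (1.40) rose in TBI over Sham, and the summed level of the list, in multiples of the 75th percentile, was 4.49 to 7.38 in Sham and 6.45 to 9.30 in TBI. Of 9 neuron markers Slc17a7 (-1.43) and Fibcd1 (-0.88) fell, and the summed level was 14.7 to 15.6 in Sham and 6.63 to 12.6 in TBI. In Naïve rats it was 8.2 to 9.3, within the TBI range. Against Naïve rats none of the 9 was called in TBI and 2 were called higher in Sham, where 4.71% and 8.08% of all probes were called. Of 5 oligodendrocyte markers 3 fell, Mobp (-1.95) and Cnp (-1.28) among them, and the summed level of the list was 105 to 108 in Sham and 51.1 to 104 in TBI. In Naïve rats it was 77.1 to 112. Against those rats no oligodendrocyte marker was called in TBI and 1 was called higher in Sham. The 3 choroid plexus markers tested had summed levels from 4.87 to 121 in Sham and from 0.180 to 3.51 in TBI, with none called. Of 5 astrocyte markers none was called, and of 5 endothelial markers Cldn5 (-1.23) fell. Against Naïve rats the astrocyte marker Gfap was higher by 2.53 in TBI and by 2.02 in Sham (limma with Benjamini-Hochberg, adjusted p = 0.00272 and 0.00772), and Cd68 by 2.22 in TBI (adjusted p = 0.0351). Gfap was the only 1 of the 5 astrocyte markers above 0 in these comparisons, and the list had medians of -0.19 in TBI and -0.11 in Sham. 1 astrocyte marker was called lower in TBI than in Naïve rats. In the drug groups minus the others, 6 of 6 microglia and macrophage, 5 of 5 endothelial, 6 of 9 neuron, 2 of 5 astrocyte and 2 of 5 oligodendrocyte markers rose, 1 oligodendrocyte marker fell, and none of the 3 choroid plexus markers was called, where 82.5% of all probes were called higher. The part of these shifts in the ribosomal protein differences was not tested.

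Each drug was then compared with TBI, and all 3 comparisons share the TBI arrays and cross the scanning sessions. Most probes on the array were higher in the drug groups, and the ribosomal protein genes were higher by less. For TBI+JM6 minus TBI their median was 0.21, against 0.99 for all probes and 0.38 for the brightest 10%, and 10 of 78 rose where 70.1% of all probes were called. For TBI+PMI minus TBI the median was 0.10, against 0.79 and 0.27, and 4 rose where 56.7% were called. For TBI+E33 minus TBI it was 0.29, against 1.08 and 0.41, and 9 rose where 70.3% were called. With the scaling used here no ribosomal protein gene was called lower in any of the 3, by limma with Benjamini-Hochberg adjustment.

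Rpl7a, a large subunit protein, had the largest difference in each: 1.58 for TBI+JM6 (adjusted p = 0.000367), 1.26 for TBI+PMI (adjusted p = 0.00225) and 1.91 for TBI+E33 (adjusted p = 0.000244), by limma with Benjamini-Hochberg. Rpl7a read -0.37 and -0.28 on the 2 usable Naïve arrays, -0.56 and -0.49 in Sham, and -0.23, 0.85 and 0.38 in TBI. It read 1.57, 1.77 and 1.44 in TBI+PMI, 1.47, 1.93 and 2.34 in TBI+JM6, and 2.15 and 2.34 in TBI+E33. Every drug array was above every other array, and within the later session the TBI arrays were above the Naïve and Sham arrays. Rpl7a also kept a positive difference under quantile normalization (0.97, 0.78 and 1.3 in the same order), where it was called in all 3. With the 75th percentile of all probes no ribosomal protein gene was called higher for TBI+PMI, so that call of Rpl7a was lost. Rpl7a has 1 probe on the array, so no other probe of the gene can be set beside it.

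Rps7, a small subunit protein that binds Mdm2, was next in TBI+E33 (1.2, adjusted p = 0.0166) and was called in TBI+JM6 (0.94, adjusted p = 0.0333), by limma with Benjamini-Hochberg. Its levels were 3.16, 1.78 and 3.15 in Naïve, 3.43 and 3.67 in Sham, 3.13 and 3.64 on the 2 usable TBI arrays, 3.87, 3.89 and 4.11 in TBI+PMI, 4.29, 4.4 and 4.29 in TBI+JM6, and 4.39 and 4.78 in TBI+E33. Naïve array 2 was far below its group, and all drug arrays were above all others.

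Rps27a, which encodes a ubiquitin fused to a small subunit protein, rose in TBI+JM6 by 0.96 (limma with Benjamini-Hochberg, adjusted p = 0.0388), with TBI values of 2.75, 3.14 and 1.74. Rps21 and Rpl15 rose in TBI+PMI by 0.71 and 0.54 (limma with Benjamini-Hochberg, adjusted p = 0.0388 and 0.0191), and Rps4y2 rose in TBI+E33 by 0.95 (adjusted p = 0.00862). Rpl15 turned to -0.11 for TBI+PMI under quantile normalization. Rpl7a was there the only ribosomal protein gene called higher in each of the 3 comparisons. The calls of Rps7, Rps27a, Rps21, Rpl15 and Rps4y2 as higher were thus lost, where 27.2%, 19.2% and 20.4% of all probes were called. With the 75th percentile of all probes 1, 0 and 1 genes were called higher for TBI+JM6, TBI+PMI and TBI+E33. With the scaling used here and TBI array 2 left out, 26 genes were called for TBI+JM6, 13 for TBI+PMI and 34 for TBI+E33. With TBI array 1 left out the counts were 4, 1 and 5. With all arrays 70.1%, 56.7% and 70.3% of all probes were called in these comparisons. The shares in the fits without single arrays are not given here, so their counts are not a result about these genes alone. The count for TBI+JM6 was 6 without TBI+JM6 array 2 and 3 without array 3. The count for TBI+PMI was 1 without TBI array 3 or TBI+PMI array 2, 2 without TBI+PMI array 1 and 6 without array 3. For TBI+E33 it was 6 without TBI array 3, and 5 and 3 without TBI+E33 arrays 1 and 2.

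The 3 drug groups lay in 1 session and could be compared with each other without crossing it. No ribosomal protein gene was called in any pair, and few other probes were: 0.0131% for TBI+JM6 against TBI+PMI, 0.0175% for TBI+JM6 against TBI+E33 and 0.11% for TBI+PMI against TBI+E33 (limma, Benjamini-Hochberg). 0, 0 and 1 ribosomal protein genes were under 0.05 without adjustment, where 8.84%, 2.81% and 15% of all probes were. The methods' t-test at its unadjusted threshold gave 1, 0 and 5, where 6.81%, 2.72% and 15% of all probes passed. The median differences were 0.10, -0.08 and -0.19, beside 0.18, -0.08 and -0.26 for all probes. TBI+PMI was below TBI+E33 in 74 of 78 genes and above it in 4, where 18.7% of all probes were above, and its array 3, the lowest of its group in 76 genes, entered that difference. Without single arrays the median of TBI+PMI minus TBI+E33 ranged from -0.25 to -0.06. These medians depended on the scaling and the slide. For TBI+PMI minus TBI+E33 it was -0.002 with the 75th percentile of all probes (38 of 78 genes above 0), -0.04 with quantile normalization (26 above 0) and 0.04 with the slide as a fixed block (46 above 0). For TBI+JM6 minus TBI+PMI it was -0.04 and 0.004 under those scalings in the same order. Within slide 3, which held 1 TBI+JM6 and 3 TBI+PMI arrays, it was -0.03, with 25 of 78 genes above 0 in place of 66. Within slide 4, which held 2 TBI+JM6 and 2 TBI+E33 arrays, the median of TBI+JM6 minus TBI+E33 was -0.006, with 38 of 78 above 0 in place of 17.

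The 2 scanning sessions were compared as the mean of the 3 drug groups minus the mean of the other 3 groups. With the scaling used here 50 of 78 ribosomal protein genes rose and none fell, where 83.2% of all probes were called and 82.5% were called as higher (limma, Benjamini-Hochberg). The median was 0.37 against 0.98 for all probes and 0.38 for the brightest 10%. 73 of the 78 genes were in that brightest 10%. Of the small subunit genes 22 of 30 were called, with a median of 0.41, and of the large subunit genes 28 of 48, with a median of 0.32. The 8 drug arrays and the 8 others did not overlap for 4 genes (Rpl7a, Rps7, Rpl15 and Rpl7l1), against 40.3% of all probes. Without Sham array 1, 33 genes were called.

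The 4 were Rpl7a with 2.09 ± 0.17 (SE), or 4.26-fold (adjusted p = 5.51e-07), Rps7 with 1.08 (adjusted p = 0.000388), Rpl15 with 0.70 (adjusted p = 6.53e-05) and Rpl7l1 with 0.68 (adjusted p = 5.82e-05), by limma with Benjamini-Hochberg. Rps4y2 (1.17), Rps27a (1.18), Rplp1 (0.99) and Rpl8 (0.92) also rose, with overlapping arrays. The other probe of Rpl8 had 0.14. Rpl15, a large subunit protein, read -1.84 to -1.23 on the later arrays and -1.21 to -0.66 on the earlier ones, so its 2 ranges lay side by side. At the low end, Rpl21 and Rpl35a had -0.12 and Rpl19 and Rpl37a -0.07, none of them called.

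Among the genes with other roles, Rpl5 rose by 0.51, Rps6 by 0.41, Rps3 and Rps19 by 0.35, and Rplp2 by 0.48, while Rpl11 (0.12), Rplp0 (0.20) and Rpl13a (0.33) were not called. Of the paralog pairs, Rps4x rose by 0.57 and Rps4y2 by 1.17, Rpl7 by 0.32 and Rpl7l1 by 0.68, Rpl10 by 0.29 and Rpl10l by 0.68, and Rpl22 by 0.40 and Rpl22l1 by 0.43. At their other probes Rps4y2 had 1.42, Rpl7 0.77, Rpl10l 0.33, Rpl22 0.67, Rpl22l1 -0.11 and Rpl10 0.47 and 0.35. Rpl3 and Rpl39 had 0.17 and 0.45, of which the second was called, and Rps27 had 0.21 and was not called. Genes with a pyrimidine run of at least 8 bases had a median of 0.38 (n = 45), those with a shorter run 0.28 (n = 17) and those without a start window 0.42 (n = 16). The paralog differences depended on the scaling. Under quantile normalization Rpl10l turned to -0.43, Rpl22l1 to -0.04 and Rpl22 to -0.02. There Rpl10 had 0.10, Rpl7 0.04, Rpl7l1 0.09, Rps4x 0.17 and Rps4y2 0.60.

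The direction of the session difference depended on the scaling. The median of all probes was 0.98 with the 75th percentile of probes above background, 0.23 with the 75th percentile of all probes and -0.01 with quantile normalization. The median of the ribosomal protein genes was 0.37, -0.38 and 0.10 in the same order, which is -0.60, -0.60 and 0.10 relative to all probes. The calls were 50 higher and 0 lower, then 2 higher and 55 lower, then 18 higher and 5 lower, while among all probes 82.5%, 42.9% and 26% were called higher and 0.768%, 24.1% and 28.5% lower. Rpl7a was higher in the drug groups under all 3 (2.09, 1.36 and 1.53), as was Rps4y2 (1.17, 0.42 and 0.60), both called each time by limma with Benjamini-Hochberg. Rpl18 had 0.76, 0.02 and 0.35. Under quantile normalization Rpl21, Rpl35a, Rpl19, Rpl36 and Rpl37 fell by 0.29, 0.26, 0.28, 0.23 and 0.24.

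The TBI minus Sham shift had the same sign under the 3 scalings. The median of the ribosomal protein genes was 0.29, 0.35 and 0.18 in the order of the paragraph above, beside -0.03, 0.03 and -0.03 for all probes, with 1, 9 and 5 genes called higher and none lower. Of all probes 2.92%, 5.89% and 3.73% were called higher. Rps2 was called under each. Under quantile normalization Rps4y2 (0.93), Rpl7a (0.89), Rpl18 (0.65) and Rpl28 (0.40) were called with it. Sham minus Naïve had -0.12, -0.23 and -0.06. For the drug groups against TBI the sign was not kept: with the 75th percentile of all probes TBI+JM6, TBI+PMI and TBI+E33 had medians of -0.58, -0.54 and -0.54, with 57, 53 and 47 genes called lower where 14.6%, 12% and 12.1% of all probes were, and under quantile normalization 0.00, -0.02 and 0.02.

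**Figure D4:**
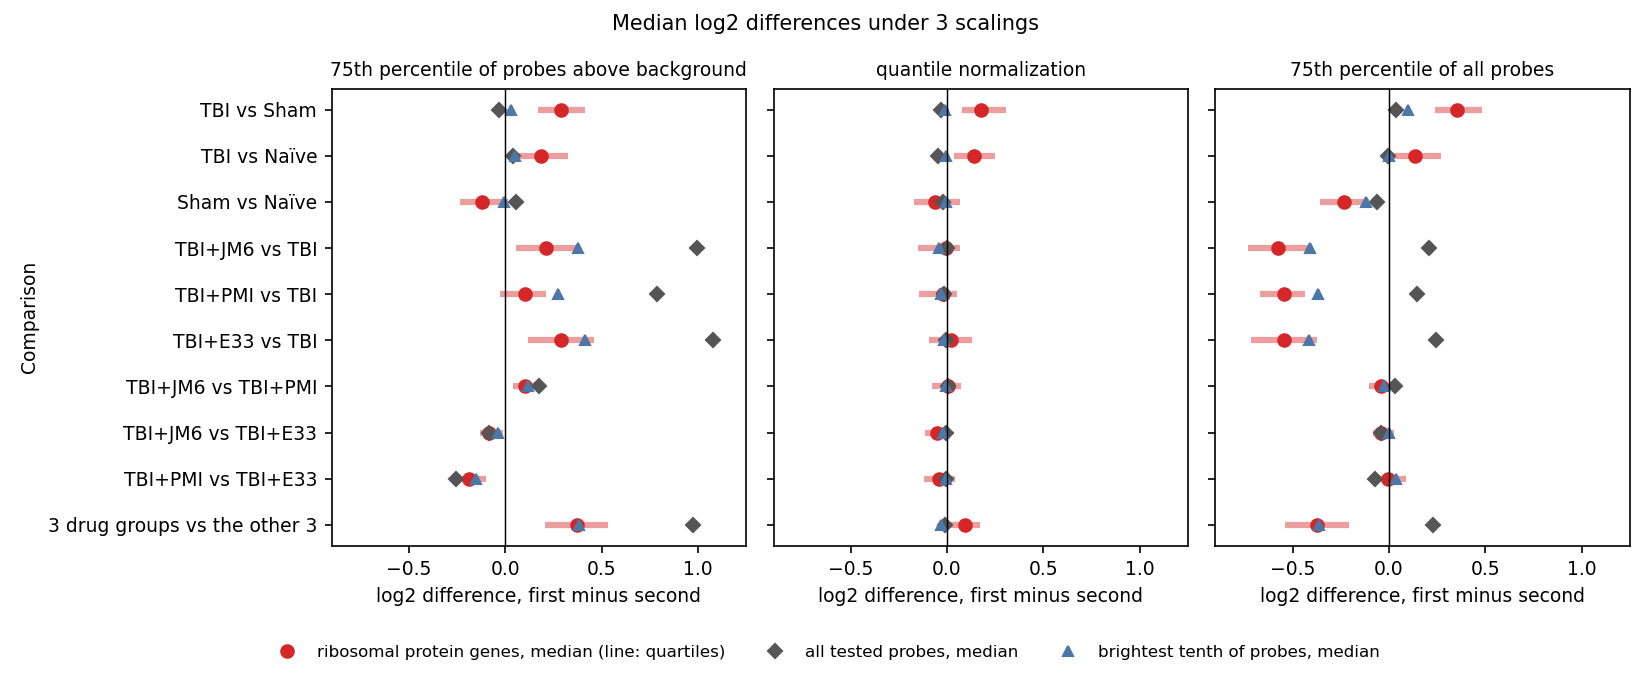
Median log2 difference of the 78 ribosomal protein genes (circles, with lines between the quartiles), of all tested probes (diamonds) and of the brightest 10% of probes (triangles) in 10 comparisons, under 3 scalings of the same signals. TBI minus Sham stays to the right of 0 (0.29, 0.18 and 0.35 from left to right), while the drug groups minus the other groups moves from 0.37 to 0.10 and -0.38.

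The session difference also followed the signal of the probe. Over the 78 genes the correlation of the difference with the mean level was r = -0.61 (Spearman rho = -0.73), and over 22783 probes r = -0.65. The points share the same 16 arrays and the same scaling, and genes are not independent replicates. For TBI minus Sham the correlation over the genes was r = -0.16. The GC content of the probe had r = -0.33 (Spearman rho = -0.54) with the session difference over the genes and r = -0.01 (rho = 0.007) over all probes.

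**Figure D5:**
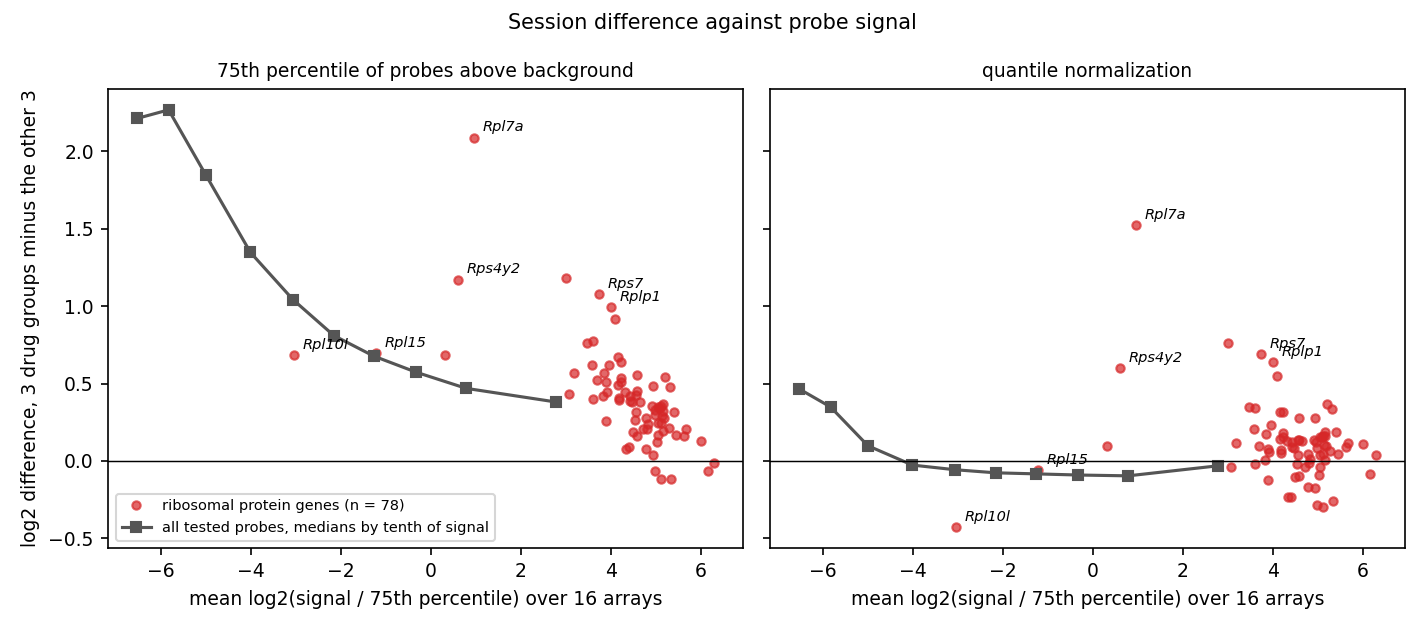
Log2 difference of the drug groups minus the other groups against the mean level of the probe over 16 arrays, with the percentile scaling used here (left) and quantile normalization (right); points are the 78 ribosomal protein genes and squares are medians of all tested probes in 10 bins of signal. On the left the bins run down from 2.21 to 0.38 with rising signal, and Rpl7a, at 2.09, stands above the bins of similar signal in both panels.

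Different probes of a gene gave different sizes. 43 genes had several tested probes. For the session difference all probes of a gene shared the sign in 38 of them, and for TBI minus Sham in 40. The dimmest probe had the larger session difference in 31 of the 43, with a median of 0.53 against 0.32 for the brightest, and the larger TBI minus Sham difference in 22. The 3 Rps23 probes printed above, from a gene for a protein of the decoding centre, had session differences of 0.16, 0.98 and 2.26, although their positions lie next to each other. Both probes after the first were usable on 12 of the 16 arrays. Rpl19 had 0.29 for TBI minus Sham at its brightest probe and 2.64 at the other (limma with Benjamini-Hochberg, adjusted p = 0.0280), which also had -2.46 for Sham minus Naïve. Session differences of 2.93 for a probe of Rpl36a and 1.93 for one of Rpl28 came from dim probes, above background on 7 and 8 of 16 arrays, where the brightest probes had 0.26 and 0.24.

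Some probe names are uncertain. The RefSeq accession of the 3 Rpl37 probes now carries the symbol Rpl37l1, so the values given for Rpl37 are from probes of that accession. Ribosomal protein genes are known for their many processed copies in mammalian genomes, and whether a probe lies in such a copy was not tested. 18 of the 142 probes were placed by the array design on another chromosome than the RefSeq gene of that name, among them the brightest probes of Rpl10a, Rpl21, Rpl35a, Rpl37a, Rpl38, Rpl9 and Rps10. Of the 4 genes with the lowest session difference, Rpl21, Rpl35a and Rpl37a are in that list and Rpl19 is not. 13 of the brightest probes span a splice junction, among them those of Rpl7a, Rps7 and Rpl19.

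Outside the cytosolic ribosomal proteins, the other genes of translation were also mostly higher in the drug groups with the scaling used here, by limma with Benjamini-Hochberg, where 82.5% of all probes were called higher, but the medians of 2 of the 6 lists turned below 0 under quantile normalization. 51 of 69 mitochondrial ribosomal protein genes rose and none fell, with a median of 0.43, led by Mrps28 (2.69) and Mrpl21 (2.06). 9 of 10 elongation factor genes rose, led by Eif5a2 (2.0) and Eef2k (1.35), the kinase of Eef2, with a median of 0.59. Of 31 initiation factors 24 rose, led by Eif2s2 (2.13) and Eif5b (1.82), and Eif3k fell by 0.27, with a median of 0.73. Of 42 ribosome biogenesis genes 38 rose, led by Gar1 (2.0) and Ubtf (1.98), with a median of 0.72. Of 17 mTOR and translation control genes 13 rose, led by Tsc1 (3.05) and Rictor (1.96), with a median of 0.97. Of the 7 ribosome-associated genes 4 rose, led by Naca (0.85) and Gnb2l1 (0.70), with a median of 0.30. Each median lay below the 0.98 of all probes, and that of the cytosolic ribosomal proteins, 0.37, lay between those of the ribosome-associated and the mitochondrial ribosomal genes. Under quantile normalization the medians were -0.15 for the mitochondrial ribosomal genes, -0.02 for ribosome biogenesis, 0.16 for elongation factors and for initiation factors, 0.23 for the mTOR list and 0.15 for the ribosome-associated genes, beside 0.10 for the cytosolic ribosomal proteins.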

How the data were processed

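The poly(A) part of total RNA was amplified, labelled and hybridised to one-colour Agilent rat arrays by the authors, who scanned and read them with Agilent Feature Extraction 9.5.3.1 per the file headers. The deposited scanner files hold spot intensity (processed signal, background-corrected). A deposited value table holds ratio values normalized by the authors, of unstated centring, which served as an alternative on the log2 scale. Control spots and outlier spots were left out, spots of a probe were averaged, signals were divided by each array's 75th percentile of probes well above background, after the study's methods, and log2 was taken.

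All 16 arrays entered 1 model with a mean per group (limma 3.58.1 in R 4.3.3, lmFit and eBayes, 10 residual degrees of freedom), with Benjamini-Hochberg adjustment over all tested probes and calls at an adjusted p under 0.05. The scripts were tested on simulated data. Genes were named by rule: up to 3 called, non-overlapping rises and falls per comparison, a set of named roles and paralogs, and up to 2 called rises and falls per other list. Other names were chosen after their values were seen. The members and the gene lists were chosen with earlier results of these data known. The list of mitochondrial ribosomal genes, the lists of translation genes and the cell type markers are described by counts and medians. Some single genes are not reported here. Of 3 red blood cell markers none was called between TBI and Sham.

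Other scalings, background correction, filters, tests, blocks, probe averages and leaving out each array were tried. The number of arrays limits the precision.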

Additional observations from a re-analysis of the deposited data

How the results depend on the processing

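The counts of called ribosomal protein genes are given in the order TBI minus Sham, TBI minus Naïve, Sham minus Naïve, then TBI+JM6, TBI+PMI and TBI+E33 minus TBI, then the drug groups minus the others, and were 1, 0, 0, 10, 4, 9 and 50. They were 9, 1, 0, 58, 53, 48 and 57 with the 75th percentile of all probes, 5, 1, 0, 3, 1, 3 and 23 with quantile normalization, and 7, 1, 1, 3, 1, 3 and 23 with the authors' value table. Under quantile normalization the 3 calls for TBI+JM6 and the 3 for TBI+E33 were each 1 higher and 2 lower. With the scaling used here 9.38%, 4.71%, 8.08%, 70.1%, 56.7%, 70.3% and 83.2% of all probes were called in that order. The shares were 12.4%, 8.09%, 10%, 43.8%, 35.8%, 40.4% and 66.9% with the 75th percentile of all probes. With quantile normalization they were 7.97%, 5.55%, 5.76%, 27.2%, 19.2%, 20.4% and 54.5%. Normexp background correction gave 0 for TBI minus Sham, 6 for TBI+JM6 and 1 for TBI+PMI. Only probes above background on all 16 arrays gave 5 and 1 for the first 2 comparisons. The compared groups alone gave 0, 4 and 1 for TBI minus Sham, TBI+JM6 and TBI+PMI. Averaging the probes of a gene gave 2, 16, 9 and 15 for TBI minus Sham and the 3 drugs. The slide as a fixed block gave 0 for TBI minus Sham, and as a random block 8 for TBI minus Sham, 1 for TBI minus Naïve and 17 for TBI+E33. The methods' t-test, unadjusted, gave 1, 1, 1, 6, 2 and 4 for the first 6, and 1 and 5 for TBI+JM6 and TBI+E33 against TBI+PMI. Of all probes 13.6%, 13.9%, 16.1%, 62.4%, 52.4% and 61% passed in the first 6, and 6.81% and 15% in the other pairs. After Benjamini-Hochberg no more than 5 genes remained in any, where up to 11870 probes did. It was not run for the drug groups against the others. Where a comparison is not mentioned for an alternative, its count stayed within 1.5 times or could not be fitted. For the remaining alternatives and for all fits without single arrays, the shares of all probes called are not given here. Their counts are not a result about the ribosomal protein genes alone.

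Leaving out single arrays gave 0 to 9, 0 to 3, 0 to 0, 3 to 26, 1 to 13, 3 to 34 and 33 to 57 calls in the same order, and 0 to 0 among the drug groups; an arm left with 1 array was assumed to vary like the other groups. With the 75th percentile of all probes the median difference of the ribosomal protein genes turned below 0 in the comparisons that cross the sessions. It was -0.58, -0.54 and -0.54 for TBI+JM6, TBI+PMI and TBI+E33 minus TBI, and -0.38 for the drug groups minus the others. Rpl15 turned to -0.10, -0.11 and -0.086 for TBI+PMI minus TBI, and to -0.052, -0.057 and -0.021 for the drug groups minus the others, with the 75th percentile of all probes, quantile normalization and the authors' table. The cause was not tested.

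With the replicate number as a block, TBI minus Sham had 2 calls. The numbers did not pair the samples: of 36 pairs of arrays with the same number 3 had a correlation of deviations over 0.1, from -0.19 to 0.18. The brightest probes were well above background on every array with a usable spot, and groups held 2 or 3 arrays.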
